A study of Mus musculus with 24 samples.

Results

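The regions described are 712 Runx1 binding intervals that were listed in untreated IDH1 R132H cells and overlapped no Runx1 interval listed after vitamin C. They were chosen by position alone. Each unique interval of the untreated Runx1 peak list was kept where no interval of the vitamin C list shared 1 bp with it, which left 712 of 3908 untreated intervals (18.2%). The other 3196 untreated intervals had a vitamin C counterpart, and 3081 of the 6250 unique vitamin C intervals had no untreated one. The 712 are called untreated-only intervals below, and the 3196 shared intervals.

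The cells came from mouse bone marrow and had been immortalized by HOXA9, a homeobox factor that keeps myeloid progenitors dividing in culture. They carried a vector for IDH1 R132H, the mutant isocitrate dehydrogenase that makes 2-hydroxyglutarate. They grew in serum with IL-3, IL-6 and SCF, so both groups share HOXA9, the mutant enzyme and these cytokines. The treated group received vitamin C to 0.345 mM at 0, 24 and 48 h and was harvested at 72 h; the labels used here give no harvest time for the untreated group. The comparison bears on the question in the series title, how vitamin C alters the epigenome of IDH1 mutant leukaemia cells. Each assay had 1 library per group (ChIP-seq of Runx1, PU.1, H3K4me1, H3K4me3 and H3K27ac, and RNA-seq), so every value sets 1 library beside another, without replicates and without a test. Region lists from methylation assays (MeDIP-seq, hMeDIP-seq and WGBS) are used only under other observations. Among these, the mutant MeDIP-seq list was deposited with the untreated wild-type library and the others with mutant libraries. Intervals in parentheses are exact 95% intervals for counting error only. Marker lists were read in RNA, and all 9 myeloid progenitor markers were measured. Their levels in RPKM (reads scaled to gene length and library size) summed to 6925 untreated and 3646 with vitamin C. The list holds Hoxa9, the gene of the immortalizing factor, at 3062 and 1487 RPKM, so the sum is not a reading of myeloid identity alone. Cd34 alone of the 9 was higher with vitamin C, at 299 and 498 RPKM. The 5 mast cell and basophil markers summed to 2065 and 2790 RPKM. Erythroid markers, of which 1 of 4 was measured, summed to 341 and 381 RPKM, and megakaryocyte markers, 2 of 3 measured, to 160 and 152 RPKM. T cell and fibroblast markers each summed to at most 0.0308 RPKM in either library, with Cd3e and Cd8a at 0 in both.

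Runx1 is the DNA-binding subunit of core binding factor. It pairs with CBFb, recognises a short core sequence usually written TGTGGT, and is required for blood stem cell formation and for myeloid maturation. PU.1, encoded by Spi1, is an ETS factor that opens myeloid enhancers and often binds next to Runx1. H3K4me1 marks enhancers, H3K4me3 marks promoters and H3K27ac marks active elements of both kinds.

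Sequence could be read for untreated-only intervals centred in a window around an annotated gene start. A window of 300 bases, 250 before to 50 after each RefSeq start (GRCm38.p6, the assembly of mm10), lay under the centre of 53 untreated-only intervals, 66 windows in all. The first 4 windows below belong to the highest-scoring untreated-only intervals centred in such a window, and those of Btla and Lat were added after their values were seen because their RNA changed past 2-fold. Each sequence is on the strand of its gene, and capitals mark every TGTGGT or TGCGGT core on either strand, so that ACCACA and ACCGCA are the same cores read from the other strand. The windows are at chr11:106750976-106751275 (Milr1, plus strand), chr10:67537316-67537615 (Egr2, plus strand), chr6:13871469-13871768 (2610001J05Rik, minus strand), chr6:85333373-85333672 (Sfxn5, minus strand), chr16:45224087-45224386 (Btla, plus strand) and chr7:126369519-126369818 (Lat, minus strand).
Milr1: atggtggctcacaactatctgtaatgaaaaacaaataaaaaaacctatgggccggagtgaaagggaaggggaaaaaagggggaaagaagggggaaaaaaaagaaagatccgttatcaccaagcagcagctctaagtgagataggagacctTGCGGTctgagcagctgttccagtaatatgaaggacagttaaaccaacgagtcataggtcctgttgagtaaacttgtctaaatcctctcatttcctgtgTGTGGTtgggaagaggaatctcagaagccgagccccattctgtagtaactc
Egr2: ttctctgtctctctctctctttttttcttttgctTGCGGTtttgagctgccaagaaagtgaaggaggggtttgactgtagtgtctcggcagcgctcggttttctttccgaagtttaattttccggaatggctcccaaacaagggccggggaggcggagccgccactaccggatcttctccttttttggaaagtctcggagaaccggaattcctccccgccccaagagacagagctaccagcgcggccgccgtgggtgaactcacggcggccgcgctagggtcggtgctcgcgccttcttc
2610001J05Rik: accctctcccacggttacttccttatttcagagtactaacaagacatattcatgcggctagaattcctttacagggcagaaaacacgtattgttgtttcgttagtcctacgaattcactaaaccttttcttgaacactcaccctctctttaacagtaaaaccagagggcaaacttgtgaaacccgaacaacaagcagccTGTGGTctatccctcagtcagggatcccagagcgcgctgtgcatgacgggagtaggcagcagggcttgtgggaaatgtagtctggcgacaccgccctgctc
Sfxn5: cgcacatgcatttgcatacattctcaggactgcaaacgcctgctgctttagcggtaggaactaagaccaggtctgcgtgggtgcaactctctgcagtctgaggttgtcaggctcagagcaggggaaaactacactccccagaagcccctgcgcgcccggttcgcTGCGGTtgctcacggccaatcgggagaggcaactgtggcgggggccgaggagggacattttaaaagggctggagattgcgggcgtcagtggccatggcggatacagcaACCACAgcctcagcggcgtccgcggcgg
Btla: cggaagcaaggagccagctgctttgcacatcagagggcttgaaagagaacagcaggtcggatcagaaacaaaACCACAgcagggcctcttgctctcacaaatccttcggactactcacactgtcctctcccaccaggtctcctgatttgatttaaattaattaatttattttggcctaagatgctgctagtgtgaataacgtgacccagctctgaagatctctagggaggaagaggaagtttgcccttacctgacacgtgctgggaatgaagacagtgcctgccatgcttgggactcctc
Lat: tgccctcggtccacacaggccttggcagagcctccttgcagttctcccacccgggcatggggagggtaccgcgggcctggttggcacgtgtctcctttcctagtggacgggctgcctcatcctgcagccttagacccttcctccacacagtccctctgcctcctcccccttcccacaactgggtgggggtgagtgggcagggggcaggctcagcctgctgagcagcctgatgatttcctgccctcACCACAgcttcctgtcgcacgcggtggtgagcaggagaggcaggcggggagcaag

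Across the 66 windows under untreated-only intervals, TGTGGT was present on either strand in 25.8%, TGCGGT in 22.7% and either core in 43.9% (31.7 to 56.7). In the 2029 windows under shared intervals the same 3 shares were 11.5%, 14.4% and 25% (23.1 to 26.9), and in all 21263 start windows they were 15.0%, 7.44% and 21.6%. The ETS-type sequence GAGGAAG, counted on both strands, was present in 28.8% of the windows under untreated-only intervals (18.3 to 41.3), in 11.6% under shared intervals and in 13.6% of all start windows. The 3 sequences do not contain one another. The 66 windows come from 53 intervals and some overlap or belong to 1 gene, so they are not independent and the intervals are too narrow. Matches were counted over the whole window, including bases outside the Runx1 interval, as with the GAGGAAG matches of the Btla window. The shares are therefore not the content of the intervals themselves. A match describes these letters in this window and is not a measured binding site. The Milr1 window holds both cores, and 264 of its 300 bases lay within the Runx1 interval. Milr1, an inhibitory receptor of mast cells, had 47.5 RPKM untreated and 62.4 after vitamin C. Egr2, an immediate early zinc finger factor, was at 0.142 and 1.99 RPKM, Sfxn5, a mitochondrial sideroflexin, at 1.05 and 1.27 RPKM, and 2610001J05Rik at 21.6 and 33.2 RPKM.

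The choice used the positions in both Runx1 lists, and the scores come from the same lists, so both are given as a description. The deposited Runx1 score, a value per peak whose definition is not given in the sources used here, had a median of 4.62 in untreated-only intervals (lowest 1.32, highest 58.9) and 8.96 in shared ones (highest 173). The untreated list was divided by score into 4 classes of 977 intervals, class 1 the lowest and class 4 the highest. Untreated-only intervals made up 360 of class 1 (36.8%), 240 of class 2 (24.6%), 99 of class 3 (10.1%) and 13 of class 4 (1.33%). The untreated-only set was therefore made up largely of low-scoring peaks, with 5 members above a score of 20 against 658 shared intervals. Their median width was 207 bp and that of shared intervals 286 bp. At the edge of the rule, the member nearest to a vitamin C interval lay 9 bp from it (Midn, score 4.72), followed by members near B3gnt8 at 19 bp and Slc37a4 at 45 bp. Just outside the rule, intervals near Hivep2, Spata5 and Otulinl shared 4, 5 and 13 bp with a vitamin C interval. A vitamin C Runx1 interval lay within 1 kb of 33 members and within 10 kb of 116, and the median gap was 60746 bp.

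Untreated-only intervals lay away from gene starts. Of the 691 members on chromosomes with start sites in the RefSeq table (21 members on chromosome 18 had none there), 95 had their centre within 1 kb of a protein-coding start, 13.7% (11.3 to 16.5). The share was 69.1% (67.4 to 70.7) for shared intervals and 61.2% (59.5 to 63.0) for vitamin C-only intervals, and the median distance to a start was 23439 bp, 146 bp and 145 bp in that order. A gene span held 56.6% of the members and 83.4% of the shared intervals. Seen from the untreated list, 4.23% of the 2248 intervals within 1 kb of a start were untreated only, and 38.2% of the 1561 beyond it. This ordering by place was present at each level of the score: in class 1, 13.9% (10.8 to 17.4) of intervals within 1 kb and 56.4% (52.0 to 60.8) beyond 1 kb were untreated only. In class 3 the shares were 0.660% and 26.2%, and in class 4 they were 0 of 706, with an exact upper bound of 0.521%, and 5.12% of 254.

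**Figure D1:**
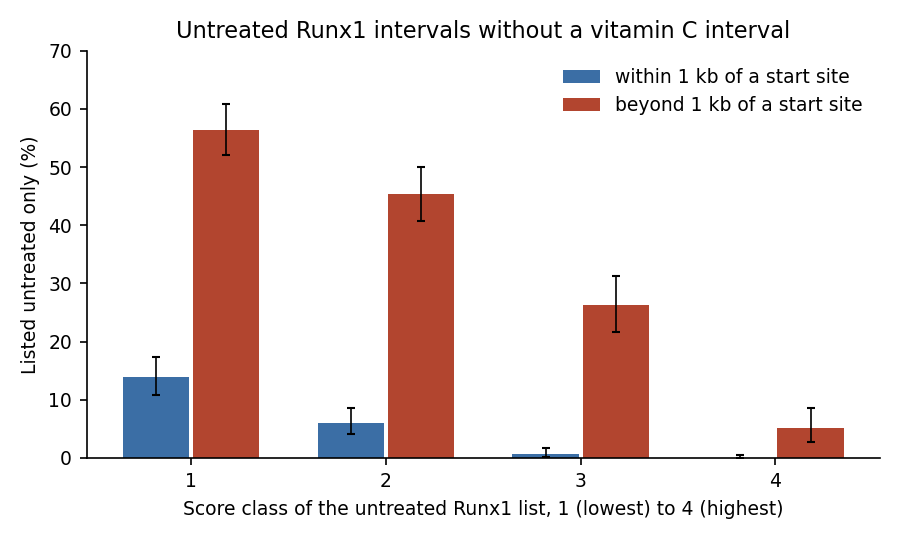
Percent of untreated Runx1 intervals with no vitamin C Runx1 interval (vertical axis), by class of the deposited score (horizontal axis) and by distance to a gene start; lines are exact 95% intervals for counting error. In every class the bar beyond 1 kb stands above the bar within 1 kb, from 56.4% against 13.9% in class 1 to 5.12% against 0 in class 4.

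PU.1 lay over untreated-only intervals more often than over either other class. An untreated PU.1 peak overlapped 421 of the 712 members, 59.1% (55.4 to 62.8), compared with 41.3% (39.6 to 43.0) of shared and 32.6% (30.9 to 34.2) of vitamin C-only intervals. A vitamin C PU.1 peak overlapped 37.9% (34.3 to 41.6), 19.0% and 16.7% in the same order. Both PU.1 lists covered 253 members, the untreated list alone 168, the vitamin C list alone 17 and neither 274. Of the members with an untreated PU.1 peak, 60.1% (55.2 to 64.8) also had one with vitamin C, although their Runx1 interval was not listed there. Of the shared intervals with untreated PU.1, 43.9% (41.2 to 46.7) did. Over the whole genome 36.1% of untreated PU.1 peaks overlapped a vitamin C PU.1 peak. The 2 lists differed in length, 61611 unique PU.1 intervals untreated and 23522 with vitamin C, opposite in order to the Runx1 lists, and the part of this difference in the shares was not tested.

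The contrast was smaller among intervals in similar places. Beyond 1 kb of a start, PU.1 was listed over 61.1% (57.0 to 65.0) of members and 49.4% (46.2 to 52.6) of shared intervals untreated, and over 40.8% and 29.9% with vitamin C. The share that kept PU.1 there was 62.4% (57.2 to 67.4) for members and 58.3% (53.7 to 62.7) for shared intervals, with overlapping intervals. Within 1 kb it was 41.9% (27 to 57.9) and 35.7% (32.4 to 39.1). The PU.1 peaks over members were high-ranking ones: their median score was 19.0 untreated, at the 76.6 percentile of all untreated PU.1 peaks, and 50.8% of them were in the top 25% of that list. For shared intervals the median PU.1 score was 9.32, at the 53.6 percentile, with 30.7% in the top 25%. Retention followed PU.1 score. Of members with a PU.1 peak in the lowest 25% of PU.1 scores, 10.9% kept one with vitamin C, and of those in the top 25%, 89.7% (84.8 to 93.4) did, beside 8.07% and 81.7% of all PU.1 peaks and 7.95% and 88.9% of PU.1 peaks over shared intervals. Where PU.1 was listed in both libraries its deposited score was higher untreated in 243 of 253 members, with medians of 42.1 and 17.5, and in 538 of 580 shared intervals.

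Single sites show the range. The member 42751 bp from the start of Lbh had a PU.1 score of 287 untreated and 172 with vitamin C. The member 24392 bp from Dusp1 had 170 and 86.9, and the one 52387 bp from Clec2d had 120 and 54.6. These 3 sites carried a high-scoring PU.1 peak in both libraries while the Runx1 interval was listed untreated only. At Gfi1, Btla and Prtn3 the PU.1 peak under the member was listed untreated only, with scores of 7.62, 11.2 and 7.07.

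H3K4me1 was the histone mark whose listing over these intervals differed most between the libraries. Untreated H3K4me1 peaks overlapped 61.4% (57.7 to 65.0) of members and 25% (23.5 to 26.5) of shared intervals. With vitamin C the shares were 36.1% (32.6 to 39.7) and 14.3% (13.1 to 15.6). The mark was listed in both libraries at 196 members, untreated only at 241 and with vitamin C only at 61, so that 44.9% (40.1 to 49.7) of marked members kept it. That share is near the 41.1% of all untreated H3K4me1 peaks that overlapped a vitamin C peak, and nothing particular to the members is read from it. Beyond 1 kb of a start, 67.3% of members and 45.2% of shared intervals had the mark untreated, and 44.6% and 45.4% of these kept it. The H3K4me1 lists held 57750 and 45657 peaks.

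H3K4me3 and H3K27ac hardly differed between the libraries at these sites. H3K4me3 peaks covered 81.5% (78.4 to 84.3) of members untreated and 82.7% (79.7 to 85.4) with vitamin C, and 97.8% of marked members kept the mark, beside 90.5% of all H3K4me3 peaks. H3K27ac peaks covered 78.4% (75.2 to 81.3) and 76.4% (73.1 to 79.5), with 96.4% kept, beside 86.6% of all H3K27ac peaks; it was listed untreated only at 20 members and with vitamin C only at 6. For shared intervals the kept shares were 99.2% and 97.2%. Both marks covered fewer members than shared intervals, of which 95.6% had H3K4me3 and 87.8% had H3K27ac untreated. This contrast differed with place. Within 1 kb of a start, untreated H3K27ac covered 90.5% of members and 89.5% of shared intervals, and H3K4me3 94.7% and 98.0%. Beyond 1 kb, H3K27ac covered 76.8% of members, 83.7% of shared and 74.8% of vitamin C-only intervals. H3K4me3 there covered 79.9%, 90.4% and 84.0%. Read together, all 3 marks lay over 49.2% of members untreated and 26.4% with vitamin C, while H3K4me3 and H3K27ac without H3K4me1 lay over 24.9% untreated and 46.1% with vitamin C. The share with no histone peak was 8.99% and 9.41%.

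**Figure D2:**
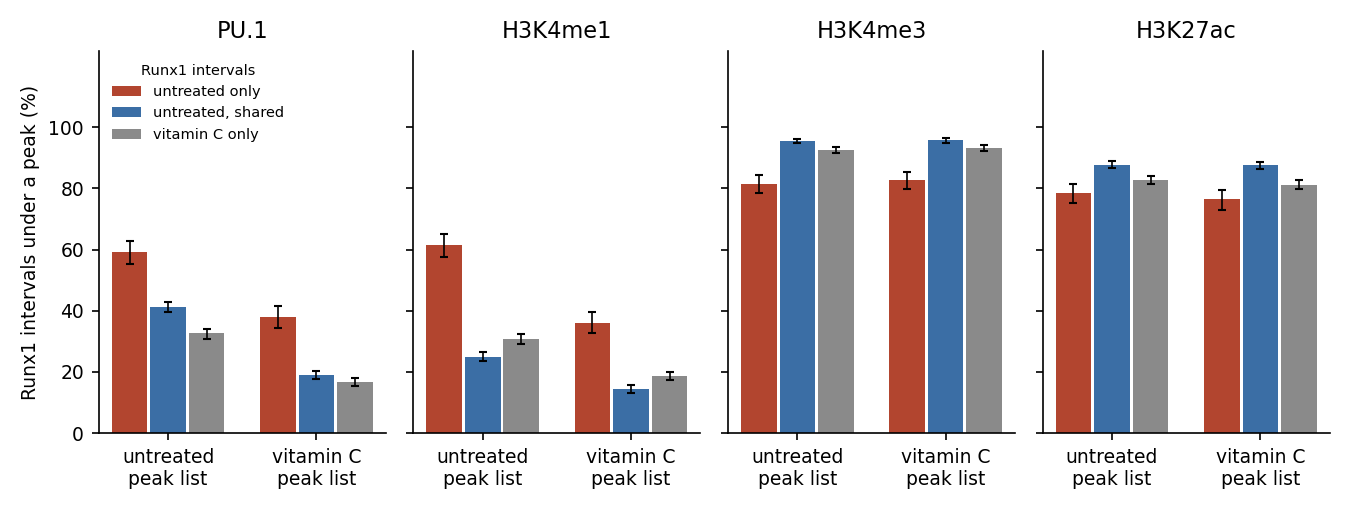
Percent of Runx1 intervals (vertical axis) that overlapped a PU.1, H3K4me1, H3K4me3 or H3K27ac peak of the untreated or the vitamin C library (horizontal axis), for untreated-only, shared and vitamin C-only Runx1 intervals; lines are exact 95% intervals for counting error. Untreated-only intervals have the highest bars for PU.1 and H3K4me1 in both libraries, 59.1% and 61.4% untreated, and the lowest for H3K4me3 and H3K27ac. The bars are not split by distance to a gene start.

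H3K4me3 and H3K27ac were listed over fewer members as the Runx1 score went up. From score class 1 to 4, H3K4me3 covered 85.8%, 81.7%, 70.7% and 38.5% of members, and H3K27ac 82.8%, 77.9%, 68.7% and 38.5%. In shared intervals H3K4me3 covered 93.0%, 94.8%, 95.4% and 98.0%. Class 4 holds 13 members and its interval is wide (13.9 to 68.4). No histone peak in either library covered 48 members (6.74%), whose median Runx1 score was 6.72, compared with 4.62 for the others. Of these 48, 14 had a PU.1 peak untreated and 25 had one with vitamin C, and 19 had no listed peak of any other kind. Among the 17 members with PU.1 listed with vitamin C only, 15 had no histone peak in either library.

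**Figure D3:**
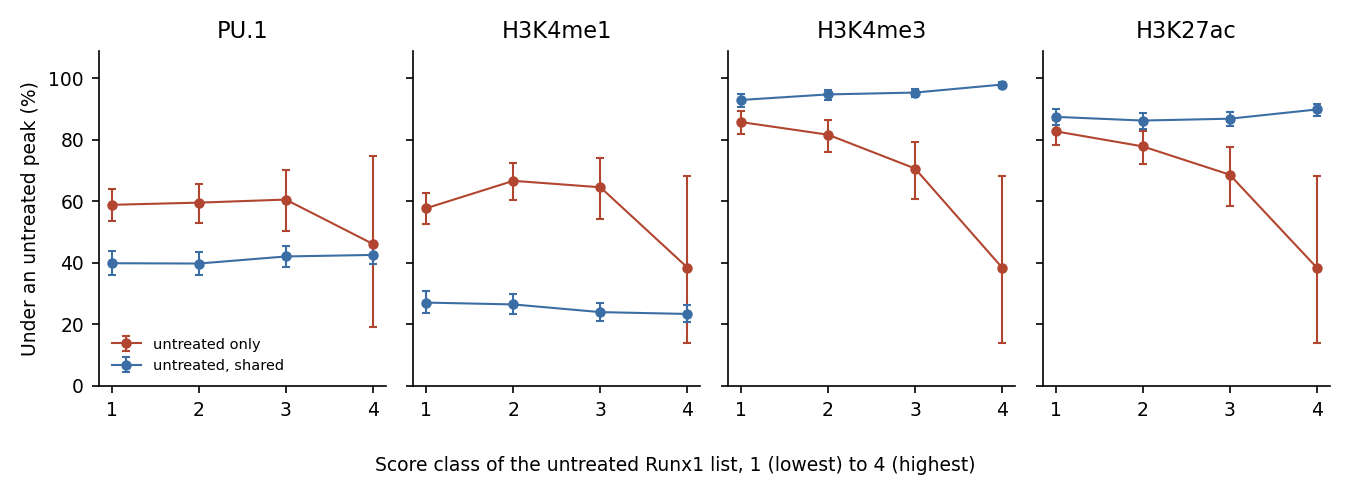
Percent of Runx1 intervals under an untreated peak of each mark (vertical axis), by class of the untreated Runx1 score (horizontal axis), for untreated-only and shared intervals; lines are exact 95% intervals for counting error. H3K4me3 and H3K27ac decline along the score in untreated-only intervals, to 38.5% of 13 intervals, and stay at 93.0% or above for H3K4me3 in shared ones.

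Of the 10 members with the highest Runx1 scores, none had its centre within 1 kb of a gene start. The highest, at chr6:132463591-132463923 with a score of 58.9, was 99623 bp from the start of Gm8882, carried no histone peak, and had PU.1 scores of 7.75 untreated and 19.8 with vitamin C. The second, with a score of 26.5, lay inside Stk38l, a serine/threonine kinase gene, 28728 bp from the start of Arntl2, a clock gene; its PU.1 peak, score 23.4, was listed untreated only. The third, with a score of 24.3, was nearest to Tsga13 and had all 3 histone marks in both libraries. The fourth lay 19532 bp from Ly75, an endocytic receptor of dendritic cells, with a Runx1 score of 22.9 and PU.1 scores of 2.50 and 19.1. The fifth, near the histone demethylase gene Kdm7a, had a Runx1 score of 22.2, and its PU.1 score was 10.5 untreated and 3.68 with vitamin C. The remaining 5 of the top 10 were nearest to Bcl11a (score 17.1), Olfr854, Vmn2r19, Sema5a and Kcnh1 (score 16.1), at distances up to 1320926 bp. The Bcl11a and Olfr854 sites had PU.1 with vitamin C only, at scores of 15.1 and 11. Gm8882, Arntl2, Ly75 and Olfr854 were listed at 0 RPKM in both libraries, and Kdm7a was at 1.8 and 0.898 RPKM.

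Members were spread unevenly over chromosomes. Chromosome 6 held 74 of the 712 (10.4%), 5.29% of shared and 5.52% of vitamin C-only intervals, and 7.26% and 7.24% of PU.1 peaks untreated and with vitamin C. Of the 243 untreated Runx1 intervals on chromosome 6, 30.5% (24.7 to 36.7) were untreated only, beside 18.2% over all chromosomes. Among the 10 members with the highest score 5 were on chromosome 6, and among the 13 in score class 4, 7 were. The median RNA log2 change of the measured genes on chromosome 6 was 0.08. Without this chromosome the shares of members under PU.1 were 58.6% untreated and 37.3% with vitamin C, and under H3K4me1 61.4% and 35.7%. For shared intervals without it the untreated PU.1 share was 40.1%. On chromosome 6 itself, untreated PU.1 covered members and shared intervals about equally, 63.5% (51.5 to 74.4) and 62.1% (54.4 to 69.5). What else differed on chromosome 6 was not tested.

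**Figure D4:**
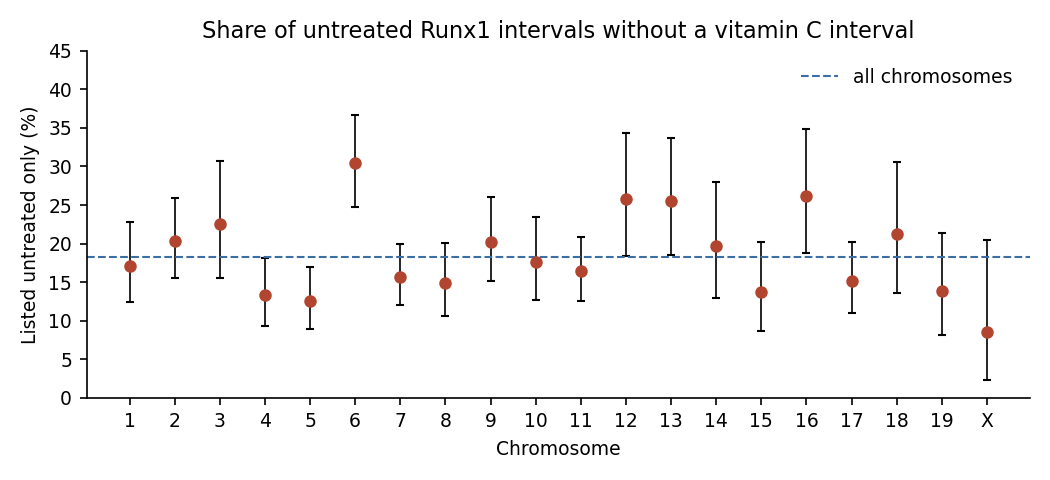
Percent of the untreated Runx1 intervals of each chromosome that had no vitamin C Runx1 interval (points, with exact 95% intervals for counting error); the dashed line is the share over all chromosomes, 18.2%. Chromosome 6 is the highest point, at 30.5%; chromosome Y, with 3 intervals, is not drawn.

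A protein-coding start within 100 kb was found for 544 members, which named 513 genes, 485 of them with 1 member, 25 with 2 and 3 with 3. A level of 1 RPKM or more, in either library, was measured for 367 of these genes. With vitamin C, 11 were 2-fold or more higher, 3.0% (1.51 to 5.30), and 12 were 2-fold or more lower, 3.27% (1.70 to 5.64), on the log2 scale of RPKM + 0.5. Over all measured genes with a start site the shares were 2.32% higher and 1.87% lower, and over all measured genes 2.38% and 1.92%, all within the counting intervals of the nearby genes. The median log2 change was -0.01 for the nearby genes and -0.04 for all measured genes. Genes nearest to shared intervals had 1.88% higher and 0.656% lower of 2287 measured. Nearby genes were thus higher about as often as lower, and their shares are not read as a result about these intervals. RNA totals were 86804487 and 111453443 reads, and in these bulk samples fewer cells of a type and less RNA per cell cannot be told apart. Of the 513 genes, 42.9% were also nearest to a vitamin C Runx1 interval, 21.8% to a vitamin C-only one, and 292 had no other Runx1 interval in either list.

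**Figure D5:**
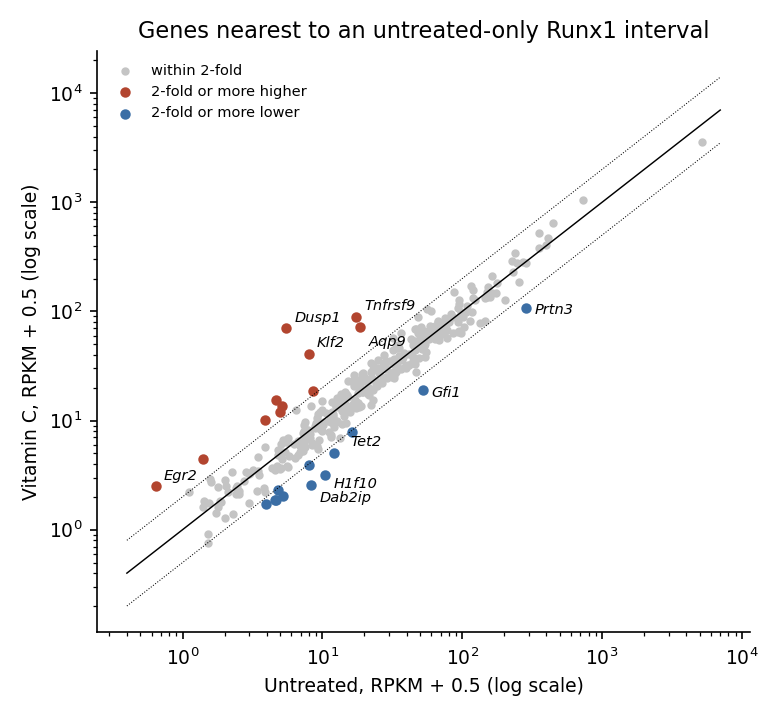
RNA level of the 367 measured genes nearest to an untreated-only Runx1 interval, untreated (horizontal axis) and with vitamin C (vertical axis), as RPKM + 0.5 on log scales; the solid line marks equal levels and the dotted lines a 2-fold difference. Most genes lie between the dotted lines, 11 above and 12 below.

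Among nearby genes reaching 5 RPKM in either library, the 10 largest positive changes were led by Dusp1, Tnfrsf9 and Klf2. Egr2, below that level, is described with the immediate early genes. Dusp1, a phosphatase that inactivates MAP kinases, had 5.00 RPKM untreated and 69.8 after vitamin C, a ratio of 14.0 (13.1 to 14.9). Tnfrsf9, the costimulatory receptor 4-1BB, was at 16.8 and 89.2 RPKM, a ratio of 5.29 (5.10 to 5.49), with its member 3579 bp from the start and no PU.1 peak. Klf2, a Kruppel-like factor, was at 7.46 and 40.5 RPKM. Its member lay 31919 bp away inside Eps15l1, while a shared Runx1 interval lay 134 bp from the Klf2 start, which was in both lists. Aqp9, a water and glycerol channel, was at 18.2 and 71.4 RPKM; its member inside the gene was listed untreated only and another interval, 4069 bp from the start, with vitamin C only. Lbh, a transcription cofactor (3.36 and 9.63 RPKM), and Osgin1, induced by oxidative stress (4.45 and 11.6 RPKM), likewise had a vitamin C-only interval, 53 bp and 52 bp from the start, while their members lay 42751 and 13048 bp away. The other genes of the 10 largest positive changes were Basp1 (4.18 and 15.0 RPKM), the prostaglandin E2 receptor gene Ptger3 (4.64 and 13.1 RPKM), Lat and Tob1. Lat, an adaptor below immune receptors, was at 8.14 and 18 RPKM with its member 68 bp from the start. Tob1, an antiproliferative factor, was at 5.93 and 12 RPKM (log2 change 0.96) and had a shared Runx1 interval 206 bp from its start beside the member at 533 bp.

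Among nearby genes reaching 5 RPKM in either library, the 10 largest negative changes included Gfi1 and Prtn3, both known from granulocyte precursors. Adcy9, below that level at 4.06 and 1.39 RPKM, had a log2 change of -1.27. Gfi1, a zinc finger repressor needed for neutrophil development, had 52.0 RPKM untreated and 18.4 after vitamin C, a ratio of 0.355 (0.343 to 0.366). Its member was 281 bp from the start at chr5:107725983-107726189, and the PU.1 peak there was not listed with vitamin C either, while H3K4me3 and H3K27ac were listed in both libraries. A shared Runx1 interval lay 24017 bp from the start, inside Evi5. Prtn3, the granule serine protease proteinase 3, was at 285 and 107 RPKM, a ratio of 0.374 (0.368 to 0.381). Its member, 1584 bp from the start, was listed untreated only and a second interval, 1267 bp from the start and inside the gene, with vitamin C only. The summed level of the 9 myeloid progenitor markers was lower with vitamin C over the same libraries, 3646 against 6925 RPKM. The 9 include Prtn3 itself, Hoxa9 with 1487 against 3062 RPKM, and Cd34, which was higher. The part of this sum in the Gfi1 and Prtn3 values was not tested.

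H1f10, a linker histone gene, was at 9.95 and 2.64 RPKM, and Dab2ip, a Ras GTPase-activating protein gene, at 7.80 and 2.05 RPKM. The Dab2ip member, of Runx1 score 4.30, lay 30413 bp from a start. A vitamin C-only interval of score 15.8 also lay inside Dab2ip, 11549 bp from a start. Btla, an inhibitory immunoglobulin-family receptor, was at 11.7 and 4.55 RPKM, a ratio of 0.388 (0.363 to 0.414). The centre of the Btla member lay 198 bp from the start used here, and the member did not reach that start, though it overlapped the window printed above. The member also overlapped the annotated gene span of Btla. No other Runx1 interval was nearest to Btla in either list. Clec2d, a C-type lectin, was at 15.7 and 7.31 RPKM, and Nebl, an actin-binding nebulette, at 7.50 and 3.45 RPKM. Tet2, the dioxygenase that oxidises 5-methylcytosine, was at 12.8 and 6.45 RPKM, with a log2 change of -0.94 and a ratio of 0.504 (0.487 to 0.522). Its member lay 38897 bp from the start, with a PU.1 score of 16.4 and an H3K4me1 peak that were listed untreated only. H3K4me3 and H3K27ac were listed over this member in both libraries. St8sia4, a polysialyltransferase gene, was at 145 and 80.4 RPKM, and Mrm1, a mitochondrial ribosomal RNA methyltransferase gene, at 8.73 and 4.94 RPKM; neither passed 2-fold.

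Genes with 3 members each were Actg1, Ptpre and Rap1gap2. The cytoskeletal actin gene Actg1 was at 353 and 525 RPKM, and its members lay between 5344 and 43236 bp from the start. Ptpre, a receptor-type tyrosine phosphatase gene, was at 58.2 and 72.5 RPKM; its 3 members lay inside the gene under 1 H3K27ac peak, with PU.1 scores of 13.7, 51.7 and 50.4 untreated, of which the first was not listed with vitamin C. Rap1gap2, which inactivates the GTPase Rap1, was at 10.7 and 7.34 RPKM, and the PU.1 peaks over its 3 members were all listed untreated only.

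Of 28 RUNX and core binding factor partner genes with a start site, 4 (14.3%) were nearest to a member: Runx1, Runx3, Lyl1 and Gfi1. Over all 17492 genes with a start site the share was 2.93%. Of the same 28, 12 were nearest to a shared interval and 9 to a vitamin C-only one, beside 2624 and 2521 of all genes with a start site. The position of these genes is thus not read as particular to the members. Of the 34 measured genes of that list 1 (2.94%) was 2-fold or more higher and 3 (8.82%) were lower, beside 2.38% and 1.92% of all measured genes, with a median log2 change of -0.19 (all measured genes -0.04). Of the genes past 2-fold in this list, only Gfi1 was nearest to a member. The Runx1 gene itself had 52.5 RPKM untreated and 66.3 after vitamin C, a ratio of 1.26 (1.24 to 1.28). It had 2 members inside its span, 24335 and 61073 bp from a start, the first with PU.1 scores of 37.9 and 11.3, next to 2 shared and 3 vitamin C-only intervals. Runx3 was at 28.1 and 34.9 RPKM, with a member of Runx1 score 13.8 lying 50655 bp from its start under PU.1 in both libraries. A shared Runx1 interval lay 194 bp from the Runx3 start. Lyl1, a helix-loop-helix factor of blood progenitors, was at 201 and 127 RPKM, and its member lay 5 bp from the start with PU.1 scores of 69.7 and 19.1.

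Of 21 genes known as RUNX-regulated in blood cells with a start site, Prtn3 and Ccnd3 were nearest to a member (9.52%). The share over all genes with a start site, for this and the next 2 lists, was 2.93%. Shared intervals were nearest to 2 of the 21 and vitamin C-only intervals to 6. Of the 26 measured 2 (7.69%) were higher and 4 (15.4%) lower, beside the same 2.38% and 1.92% of all measured genes, with a median log2 change of 0.17. Only Prtn3 among the genes past 2-fold was nearest to a member, so these shares describe the list and not the intervals. Ccnd3, the D-type cyclin 3, was at 115 and 172 RPKM, with the member 33 bp from 1 start. The gene also held 2 shared intervals, 3101 and 2237 bp from a start. Its 2 vitamin C-only intervals lay 6175 bp and 93 bp from a start, the second with a score of 36.1. Of 14 cytokine receptor and signalling genes 2 (14.3%) were nearest to a member: Socs1, an inhibitor of JAK signalling (48.6 and 61.6 RPKM), and Pim1, a kinase induced by STAT5 (238 and 342 RPKM). Shared intervals were nearest to 5 of the 14, and vitamin C-only intervals also to 5. The Pim1 start kept a shared Runx1 interval with scores of 82.3 and 128, while its member lay 17870 bp away. Of the 16 measured genes of that list 1 (6.25%) was higher and 2 (12.5%) were lower, with a median log2 change of -0.00. None of the genes past 2-fold in it was nearest to a member. Of 11 immediate early genes, Egr2 and Dusp1 were nearest to a member (18.2%), while 5 were nearest to a shared interval and 7 to a vitamin C-only one. The Egr2 ratio was 14.0 (9.97 to 20.3) on 35 and 627 reads, and its member, centred 239 bp from the start, had H3K4me3 in both libraries, H3K27ac with vitamin C only and no PU.1 peak. In that list 12 of 14 measured genes were 2-fold or more higher, with a median log2 change of 2.27, beside 2.38% of all measured genes, so the 2 genes with a member moved as most of the list did. The list was chosen with earlier results of these data known, so its share is a description only.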

How the data were processed

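Per the submitters' processing notes, which give no role or order, the build was mm10 and the tools included MACS2 2.1.0.2, Picard, SAMtools (0.1.16, 0.1.8 and 0.1.2), Novoalign 3.02.08, CASAVA 1.8.2 and BWA. The read counter and its gene models are not given in the sources used. The RNA-seq files hold a read count and an RPKM value per gene, as the authors deposited them, and RPKM scales counts by gene length and library size. The Runx1 and PU.1 lists carry a score per interval that the authors deposited without a definition. Each histone peak has a deposited p-value or q-value (which one is not stated), never above 1e-05. Peak lists were deposited 1 per library, and each region list of the methylation assays was deposited under 1 library.

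Repeated intervals were removed, 139 and 337 for Runx1 and 1159 and 259 for PU.1, keeping the strongest value. Starts were read as BED positions and written 1-based. Overlap meant 1 bp. Python 3.11.15, pandas 2.3.3, numpy 2.4.6 and scipy 1.17.1 were used, and the overlap code was tested on simulated data. Shares have exact Clopper-Pearson intervals, and RPKM ratios exact binomial intervals on reads, both at 95% and for counting error only. Genes were assigned by the nearest protein-coding start within 100 kb of an interval's centre; RefSeq starts covered 17492 of 21887 protein-coding genes and none on chromosome 18. The log2 change used a pseudocount of 0.5 RPKM and genes reaching 1 RPKM in either library, called at 2-fold. Conditions were not tested against each other, since each had 1 library.

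The text names the nearest genes of the 10 highest-scoring members, the 10 largest changes in each direction among nearby genes reaching 5 RPKM in either library, genes with 3 members, genes of the fixed lists nearest to a member, and 4 high-scoring members at a start site. Members and lists were chosen with earlier results of these data known. Alternatives varied the overlap rule, the peak lists, the pseudocount, the minimum RPKM, the distance to a start and the scaling of RNA.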

Additional observations from a re-analysis of the deposited data

How the results depend on the processing

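None of the 30 named genes changed sign under the alternatives tried. Of 64 recomputed summary values 39 stayed within the stated spread (for a count, 1.5 times) and 25 moved; of 90 recomputed changes of named genes 78 stayed and 12 moved. Counting an interval as lost over the upper 50% of the score list only, 112 remained. Requiring 50% of a member to be covered gave shares, untreated and with vitamin C, of 54.4% and 33.7% for PU.1, 67.3% and 69.0% for H3K4me3, and 73.2% and 70.2% for H3K27ac. With the stronger 50% of each peak list they were 41.9% and 27.5% for PU.1, 21.2% and 9.83% for H3K4me1, 59.6% and 58.8% for H3K4me3, and 70.5% and 65.2% for H3K27ac. Among the 112 higher-scoring members they were 44.6% for PU.1 with vitamin C, 30.4% for H3K4me1 with vitamin C, 67.0% and 73.2% for H3K4me3, and 65.2% and 64.3% for H3K27ac. The H3K4me3 share, higher with vitamin C over all peaks, was the lower one with the stronger 50% of peaks; the cause of these shifts was not tested. Genes 2-fold higher numbered 5 of 177 (2.82%) with starts within 10 kb and 17 of 440 (3.86%) by nearest gene span. The nearest-span alternative was chosen after seeing the data, as was leaving out chromosome 6. Genes 2-fold lower numbered 7 of 314 (2.23%) at 5 RPKM or more and 5 of 177 (2.82%) within 10 kb. The number of genes counted thus differed from the 367 of the main setting. These shares lay within the main counting intervals, 1.51 to 5.30 for higher and 1.70 to 5.64 for lower genes. Which direction had more genes changed with the setting: 11 higher and 12 lower as reported, but 9 and 7 at 5 RPKM or more, 17 and 16 by nearest gene span, 13 and 12 by counts scaled to library totals and 11 and 10 without chromosome 6.

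No paired analysis was possible because each group held 1 library. ChIP depth is not in the lists, so an interval missing from the vitamin C list was not listed there, which does not show it to be unbound. The Runx1 lists themselves were not filtered to a common score. For the 13 members in the highest score class the shares are imprecise. Whether a nearest gene is controlled by its interval was not tested.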

Other observations

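The deposited lists of regions from methylation assays met few Runx1 intervals of any class. MeDIP-seq deMRs overlapped 0.281% of untreated-only, 0.25% of shared and 0.227% of vitamin C-only intervals. In the same order, MeDIP-seq iMRs overlapped 0.140%, 0% and 0.0325%, and hMeDIP-seq iHRs 0.421%, 0.563% and 0.357%. The mutant MeDIP-seq list, deposited with the untreated wild-type library, overlapped 0.281%, 0.313% and 0.325%. WGBS deMRs overlapped 0.702% (0.228 to 1.63), 0.375% and 0.422%. WGBS iMRs overlapped no untreated-only interval, with an exact upper bound of 0.517%, 12 of the 3196 shared (0.375%) and 25 of the 3081 vitamin C-only intervals (0.811%). The iHR sites included one inside Runx2, the bone-determining RUNX family member, at chr17:44654606-44654917 with PU.1 scores of 17.8 untreated and 5.24 with vitamin C. The member nearest to Pou4f1 on chromosome 14 met both a MeDIP-seq iMR and a WGBS deMR and had PU.1 with vitamin C only. What the abbreviations and thresholds of these lists stand for is not stated in the labels.

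Some genes of the fixed lists had no start site in the table or a member nearer to another start, and are named here after their values were seen. A member of Runx1 score 15.2 inside Rapsn lay 39419 bp from the span of Spi1, which encodes PU.1 and had 105 RPKM untreated and 83.0 after vitamin C. Members lay inside Etv6 (PU.1 scores 127 and 43.9; 90.6 and 90.1 RPKM) and inside Ikzf1 (PU.1 score 10.5 untreated only; 26.9 and 21.4 RPKM). A member lay 3910 bp from the span of Osm, a cytokine gene with 11.6 RPKM untreated and 95.8 after vitamin C. Ccnd2, at 60.6 and 78.2 RPKM, held a member with PU.1 scores of 8.78 and 3.61.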
